A study of Mus musculus with 6 samples.

Results

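The immunity-related GTPases (IRG proteins) were examined in hypoxic primary neonatal mouse cardiomyocytes (NMCMs) given vehicle or β-sitosterol (β-SITO), a plant sterol. The 8 genes were taken by name from the deposited table of 57010 genes and were Irgm1, Irgm2, Igtp, Iigp1, Tgtp1, Tgtp2, Gm4951 and Irgq. All 8 were in the table and all 8 had enough reads to be tested. The hypoxic (HO) cells formed the groups HO + Vehicle (group V, libraries V1 to V3) and HO + β-SITO (group T, libraries T4 to T6). Compared with group V, 7 of the 8 genes were lower in group T, by 20.3-fold (Irgm2) or more. Irgq, the distant relative in the family, differed by less than the 2-fold cutoff.

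IRG proteins are GTPases that interferons, above all interferon-γ, induce in mouse cells, where they defend the cell against microbes that live inside membrane-bound vacuoles. Effector members carry the usual lysine of a GTP-binding loop (the GKS type) and assemble on the vacuole membrane. Regulatory members carry a methionine in its place (the GMS type), sit on the membranes of the cell's own organelles and keep the effectors in their inactive, GDP-bound state there. Irgm1 also has a known part in lysosome and mitochondrial upkeep in macrophages.

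The difference that names the classes can be read in the coding sequences, which were taken from GENCODE vM21 transcripts (build GRCm38). The 24 bases shown for 6 of the genes are the 8 codons that match the pattern of the first GTP-binding loop. The capitals mark the seventh codon, ATG for methionine or AAG for lysine:
Irgm1: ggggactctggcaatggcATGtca
Irgm2: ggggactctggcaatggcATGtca
Igtp: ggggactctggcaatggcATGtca
Tgtp1: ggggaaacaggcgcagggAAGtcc
Tgtp2: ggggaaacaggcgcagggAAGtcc
Irgq: gggcctcccggctcgggaAAGtcc
The loop starts at codon 83 in Irgm1 and Irgm2, at codon 91 in Igtp and at codon 63 in Tgtp1 and Tgtp2. Iigp1 and Gm4951 also have AAG at this place, at loops that start at codons 76 and 75. In Irgq a stretch of the same pattern starts at codon 14, nearer to the start of the protein than in the other members. Whether this stretch of Irgq is a GTP-binding loop was not tested. Over their whole coding sequences the GMS genes were 63.0% to 67.3% identical to one another, Iigp1 and Gm4951 86.1%, Tgtp1 and Tgtp2 99.7%, and Irgq at most 42.8% identical to any other member.

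The groups were 3 libraries each of NMCMs prepared from the hearts of newborn C57BL/6 mice and made hypoxic, which the study's methods describe as 95% nitrogen, so both groups share the hypoxia and no library of normoxic cells was used here. How much β-SITO these cells received, and for how long, is not given in the sources used here, and nothing says whether the libraries came from separate preparations of cells, so p-values measure only the spread between these libraries, which may be technical. Between 16694734 and 18460522 counts per library were assigned to genes. Cardiomyocyte markers were present (10 of 10 tested, summed level 4853 to 5643 CPM in group V and 4766 to 8051 CPM in group T; 3 higher, none lower). Markers of other heart cells were present too, and those of fibroblasts summed to more than those of cardiomyocytes in both groups. Such sums do not measure shares of cells. Fibroblast markers summed to 29833 to 31113 CPM and 44413 to 45501 CPM (0 of 8 called), endothelial markers to 202.5 to 232.4 CPM and 812.5 to 845.4 CPM (7 of 7 higher), and macrophage markers to 1269 to 1394 CPM and 2803 to 3449 CPM (7 of 10 higher, and Fcgr1 lower). Of the 8 lymphocyte markers 1 had enough reads to be tested and 3 had no read in any library, among them the T-cell receptor complex genes Cd3e and Cd3d. The 1 tested, Cd4, was called higher (log2 fold change 2.28). Cd4 had enough reads for the test only through group T, so it could hardly be called lower. The list summed to at most 1.13 CPM in group V and at most 2.76 CPM in group T. Among those too low to be tested, Klrb1c had 0, 0 and 0 counts in V1 to V3 and 2, 6 and 10 in T4 to T6, and Ms4a1 had 4, 7 and 4 against 0, 0 and 0. The cell type in which the IRG transcripts arose was not measured, and in bulk RNA fewer cells of a type and less RNA per cell cannot be told apart. The submitters' own names for the libraries, in the labels and the deposited table, end in a letter C in group T only, so a difference in handling that this letter may mark cannot be told apart from the treatment.

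Expression is given in CPM (the count scaled to library size after TMM normalization), and fold changes come from edgeR's quasi-likelihood test on all 14799 genes with enough reads, with Benjamini-Hochberg adjusted p-values. To be called, a gene had to differ by over 2-fold with an adjusted p below 0.05. Of the genes tested 10.1% were called lower and 12.8% higher in group T. Of the 8 IRG genes 7 were called lower and none higher. The median log2 fold change of the 8 was -6.15, and that of all genes tested was -0.01. For 35.8% of all genes tested, and for 8 of 8 IRG genes, every T library lay below every V library. With 3 libraries against 3, the exact permutation test cannot give a p below 0.1, which it gave for each of the 8 genes (two-sided).

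The 3 regulatory genes were all called lower, with log2 fold changes from -5.99 to -4.34. Irgm1 (chromosome 11, 48752795 to 48762510, minus strand) had 868.3, 942.6 and 947.7 CPM in V1 to V3 and 40.6, 32.0 and 34.6 CPM in T4 to T6. The highest T library thus lay far below the lowest V library, and the group means were 919.5 ± 44.5 and 35.7 ± 4.41 CPM (SD, n = 3). Its log2 fold change was -4.68 ± 0.09 (SE; edgeR's quasi-likelihood test, adjusted p = 6.91e-16), so that 3.89% of the level in group V was found in group T.

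Irgm2, whose product sits mainly on the Golgi apparatus, lies on the same chromosome (58090444 to 58113608, plus strand). It had 752.5, 718.1 and 744.4 CPM in the V libraries and 38.4, 35.6 and 35.2 CPM in the T libraries. This was the smallest change among the 7 genes called (log2 fold change -4.34 ± 0.07, SE; edgeR's quasi-likelihood test, adjusted p = 1.06e-16), and 4.94% of the level in group V was found. Igtp, also called Irgm3, encodes the regulator of the endoplasmic reticulum and lies beside Irgm2 (58090382 to 58098417, plus strand). It had 610.0, 603.9 and 632.9 CPM in V1 to V3 and 10.1, 8.71 and 10.2 CPM in T4 to T6. Its log2 fold change of -5.99 ± 0.08 (SE; edgeR's quasi-likelihood test, adjusted p = 3.20e-17) exceeded in size those of the other GMS genes and left 1.57% of the level in group V.

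In the deposited table the span of Irgm2 covers 7974 bases of Igtp on the same strand, so reads in the shared stretch could be given to either gene or to none. Of the 150-base windows of the Igtp transcript, 0.854% also occur in Irgm2. When the counts of both genes were summed to 1 feature, the log2 fold change was -4.87 ± 0.07 (SE; edgeR's quasi-likelihood test, adjusted p = 2.25e-17).

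All 4 effector genes were called lower, with log2 fold changes from -8.94 to -6.31. Iigp1 encodes Irga6, the best studied effector, which loads onto the Toxoplasma vacuole. It lies on chromosome 18 (60509099 to 60525706, plus strand) and had 1036, 1173 and 1198 CPM in the V libraries. In the T libraries 14.1, 16.3 and 12.7 CPM were left, 1.27% of the mean of group V, with a log2 fold change of -6.31 ± 0.10 (SE; edgeR's quasi-likelihood test, adjusted p = 1.19e-16). Gm4951, the close relative of Iigp1 on the same chromosome (60345152 to 60380892, plus strand), had 164.7, 185.1 and 178.9 CPM in V1 to V3 and 1.39, 1.57 and 1.46 CPM in T4 to T6. Its log2 fold change was -6.90 ± 0.10 (SE; edgeR's quasi-likelihood test, adjusted p = 6.21e-17). With DESeq2, an alternative fit, the standard error was larger, 0.18. A processed pseudogene on the same strand, Gm5970, lies within the span of Gm4951 and held 200 counts in the V libraries and 1 in the T libraries.

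Tgtp1 and Tgtp2 are the near-identical genes for the effector Irgb6, which loads onto vacuoles early. Tgtp2 (chromosome 11, 48948021 to 48955033, minus strand) had 313.3, 343.7 and 357.3 CPM in the V libraries and 0.719, 0.843 and 0.781 CPM in the T libraries, which held 14, 15 and 15 counts. Its log2 fold change was -8.75 ± 0.11 (SE; edgeR's quasi-likelihood test, adjusted p = 2.36e-17). DESeq2 gave a larger standard error, 0.23. Tgtp1 (48876154 to 48884999, minus strand) had 601, 637 and 592 counts in V1 to V3, or 36.7 to 39.9 CPM. In T4 to T6 it had 1, 1 and 2 counts, so the size of its decrease is imprecise: the ratio of the groups was 539.1, with an exact 95% interval of 210.2 to 1981 that covers counting error only. The fitted log2 fold change, -8.94 ± 0.19 (SE; edgeR's quasi-likelihood test, adjusted p = 1.97e-15), depends on the small count added in the fit. Here DESeq2 gave a standard error of 0.73. Tgtp1 had enough reads for the test only through group V, so it could hardly be called higher. Because 74.1% of the 150-base windows of the Tgtp1 transcript occur unchanged in transcripts of Tgtp2 or Gm12185, and 71.7% of those of Tgtp2 in Tgtp1, the split of reads between these genes is uncertain. Summed to 1 feature, Tgtp1 and Tgtp2 had 5561, 6120 and 6357 counts against 15, 16 and 17, a log2 fold change of -8.77 ± 0.11 (SE; edgeR's quasi-likelihood test, adjusted p = 5.90e-18). This standard error, too, rests on few counts in group T and may be too small. Tgtp1 also overlaps Gm12185 on the same strand, and Tgtp1 and Tgtp2 lie within the annotated span of the olfactory receptor gene Or2v1 on the other strand, which held 3981 counts in the V libraries and 53 in the T libraries. Strand use in the counting is not given in the sources used here, so reads of these genes and of Or2v1 cannot be told apart.

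Irgq stood apart from the other members. The product of its human counterpart has been described as an autophagy receptor for misfolded MHC class I molecules, and the gene lies on chromosome 7 (24230114 to 24238025, plus strand). It had 73.5, 64.3 and 63.7 CPM in V1 to V3 and 51.4, 51.4 and 55.8 CPM in T4 to T6. The groups did not overlap, and the log2 fold change of -0.34 ± 0.07 (SE) was larger than the spread between libraries (edgeR's quasi-likelihood test, adjusted p = 5.37e-04) but did not reach 2-fold. Its size depended on the scaling: with library size only the log2 fold change was -0.20 (adjusted p = 0.023), while the median of all genes moved by 0.15.

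**Figure D1:**
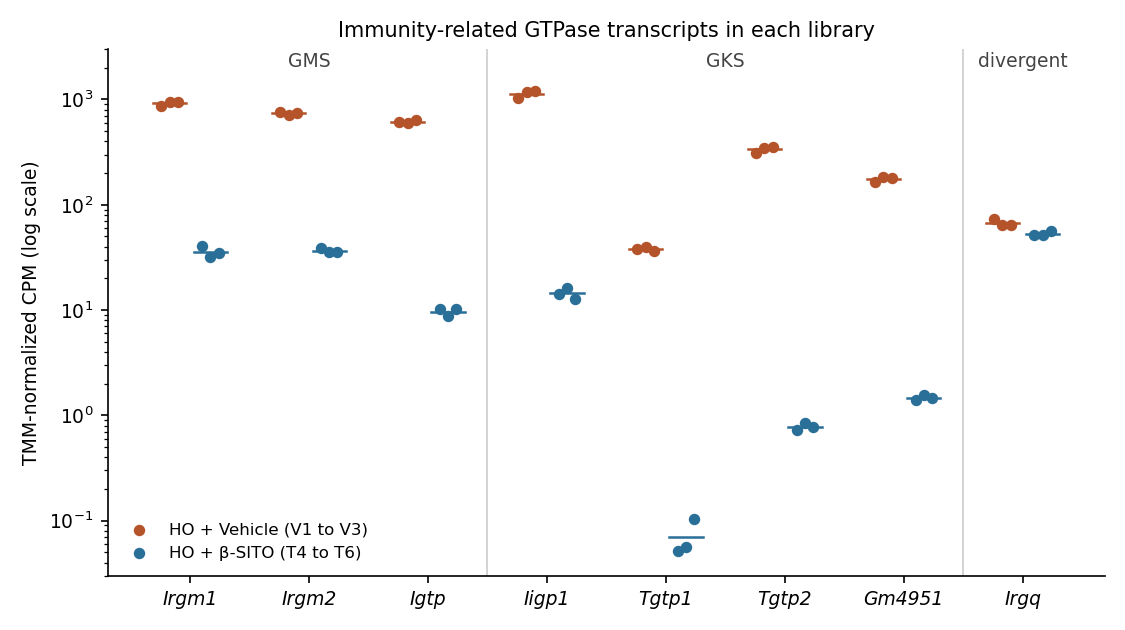
TMM-normalized CPM (log axis) of the 8 IRG genes in the 3 HO + Vehicle libraries (orange) and the 3 HO + β-SITO libraries (blue), 1 point per library, with a bar at each group mean. The fitted fold change is 20.3 or more in 7 genes, Tgtp1 rests on 1 to 2 counts in the blue libraries, and Irgq differs by less than 2-fold.

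**Figure D2:**
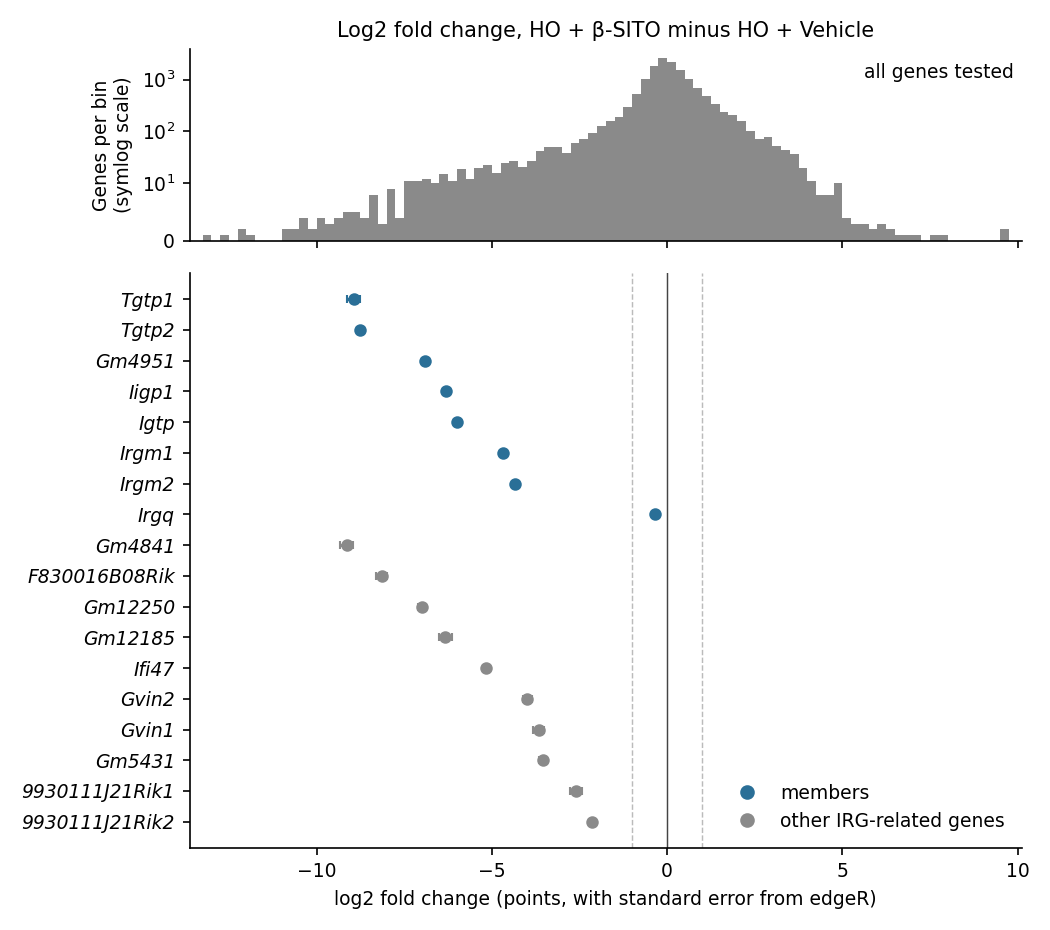
Log2 fold change (HO + β-SITO minus HO + Vehicle) of all 14799 genes tested (upper panel, number of genes per bin on a symlog axis) and of the 8 IRG genes and 10 related genes (lower panel, points with standard errors; dashed lines at 2-fold). The 7 GMS and GKS genes lie between -4.34 and -8.94, and Irgq lies at -0.34. The standard errors come from the F statistic, and DESeq2 gave larger ones for Gm4951, Tgtp2 and Tgtp1.

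To compare levels between genes, CPM was divided by the exonic length of each gene in GENCODE vM21 (CPM per kb, a level). In group V Igtp was highest at 304.5 ± 7.58 CPM per kb, rank 139 of 14637 genes with a known length. Irgm2 (200.1 ± 4.87) and Iigp1 (195.0 ± 15.0) followed and overlapped each other, and then came Irgm1 (158.3 ± 7.65), Tgtp2 (115.1 ± 7.67) and Gm4951 (66.6 ± 3.96 CPM per kb; all SD, n = 3). Tgtp1 (11.4 to 12.5) and Irgq (10.5 to 12.1 CPM per kb) were lowest, with overlapping libraries. IRG transcripts were thus among the more abundant messages of the V libraries, with 6 of the 8 genes within the first 796 ranks.

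In group T the order was another. Irgm2 was highest at 9.87 ± 0.47 CPM per kb, followed by Irgq (8.69 ± 0.41), Irgm1 (6.15 ± 0.76), Igtp (4.79 ± 0.41), Iigp1 (2.47 ± 0.31) and Gm4951 (0.557 ± 0.036 CPM per kb; all SD, n = 3). Tgtp2 (0.266 ± 0.021) and Tgtp1 (0.0220 ± 0.0091) were lowest. No neighbours in this order had overlapping libraries. Igtp thus moved from rank 139 to rank 7113, and Iigp1 from rank 236 to rank 9562. The lengths are those of another annotation release than the deposited table, and the level of Tgtp1 and Tgtp2 depends on how shared reads were counted.

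The balance between regulatory and effector transcripts was read within each library as a share of counts, which does not depend on the normalization. It does depend on how reads that match several genes were counted, which is not given. Irgq has the lysine codon too, but as the distant relative of the family it was kept apart from the GKS effectors, here and in the counts above. Together the 7 other genes, 3 GMS and 4 GKS, took 0.358%, 0.383% and 0.387% of all counts in V1 to V3 and 0.0111%, 0.00998% and 0.0100% in T4 to T6. GMS genes made up 59.0%, 56.5% and 56.8% of these counts in the V libraries (35316 to 37513 GMS counts against 24570 to 28575 GKS counts). In the T libraries they made up 84.6%, 80.3% and 84.2% (1358 to 1735 against 289 to 334 counts). Every T library had a higher GMS share than every V library (57.4% ± 1.35 against 83.0% ± 2.38, SD, n = 3; two-sided p = 0.1 in the exact permutation test). Without Iigp1 the shares were 80.5% ± 0.67 and 97.2% ± 0.39, and without Irgm1 44.5% ± 1.93 and 73.4% ± 2.74, with no overlap in either case. With Ifi47 and Gm12250, the genes for the effectors Irgd and Irgb10, added to the GKS side, they were 52.3% ± 1.22 and 77.1% ± 2.42 (SD, n = 3). Other related genes with the lysine codon, such as Gm4841 and F830016B08Rik, were in none of these shares.

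Members of the same class were compared within each library in the same way. For each 100 counts of Irgm2 there were 83.4 ± 2.07 counts of Igtp in group V (lowest 81.1) and 26.6 ± 2.26 in group T (highest 29.0; SD, n = 3). Irgm1 counts per 100 Irgm2 counts were 115.4, 131.3 and 127.3 against 105.6, 89.7 and 98.2, a smaller difference that also left no overlap. These ratios to Irgm2 depend on how reads in the stretch that Irgm2 shares with Igtp were counted, which is not given. Among effectors, Gm4951 had 15.9, 15.8 and 14.9 counts per 100 Iigp1 counts in the V libraries and 9.82, 9.66 and 11.5 in the T libraries. Each of these 3 comparisons gave p = 0.1 in the exact permutation test (two-sided), the smallest possible with 3 libraries against 3. The share of Tgtp1 in the counts of Tgtp1 and Tgtp2 overlapped between the groups (9.31% to 10.8% against 6.25% to 11.8%; exact permutation test, two-sided, p = 0.4).

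**Figure D3:**
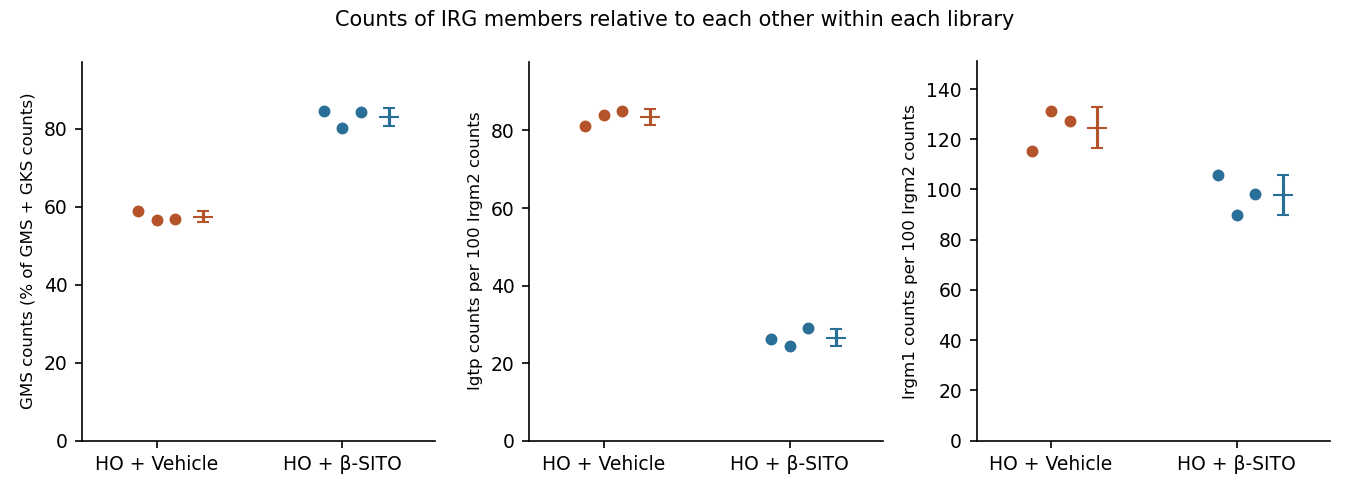
Relations between IRG counts within each library: the GMS share of GMS and GKS counts (percent), Igtp counts per 100 Irgm2 counts and Irgm1 counts per 100 Irgm2 counts, for the HO + Vehicle (orange) and HO + β-SITO (blue) libraries, with mean and SD beside the points (n = 3). The GMS share was 57.4% and 83.0%, and Igtp had 83.4 and 26.6 counts per 100 counts of Irgm2. The ratios to Irgm2 depend on how reads in the stretch that Irgm2 shares with Igtp were counted. The GMS share depends on how reads that match several genes were counted.

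Interferons act on promoters through the interferon-stimulated response element (ISRE), bound by IRF proteins, and through the gamma-activated site (GAS), through which interferon-γ acts. RefSeq promoter sequences (build GRCm38.p6, from upstream of the start to a short way past it) were matched for 6 of the 8 members, Irgm1, Irgm2, Igtp, Tgtp1, Tgtp2 and Irgq. They were searched for an ISRE core, GAAANNGAAA on either strand, and a GAS core, TTCNNNGAA, which reads alike on both strands. The 100 bases before the start are shown for the members with a match, on the transcribed strand, with matches in capitals:
Irgm1: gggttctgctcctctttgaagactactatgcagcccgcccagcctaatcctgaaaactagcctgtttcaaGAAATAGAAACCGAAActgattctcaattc
Irgm2: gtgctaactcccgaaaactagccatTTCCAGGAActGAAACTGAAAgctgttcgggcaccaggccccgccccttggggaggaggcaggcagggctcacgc
Igtp: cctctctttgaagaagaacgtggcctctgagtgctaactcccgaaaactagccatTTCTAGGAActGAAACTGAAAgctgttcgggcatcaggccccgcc
Tgtp1: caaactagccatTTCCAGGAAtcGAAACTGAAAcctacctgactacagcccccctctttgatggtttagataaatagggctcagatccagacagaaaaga
Tgtp2: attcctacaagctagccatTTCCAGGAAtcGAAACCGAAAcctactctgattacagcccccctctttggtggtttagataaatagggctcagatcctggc
They lie at chr11:48871421-48871520 (Irgm1, minus strand), chr11:58214877-58214976 (Irgm2, plus), chr11:58199456-58199555 (Igtp, plus), chr11:48992247-48992346 (Tgtp1, minus) and chr11:49064213-49064312 (Tgtp2, minus).

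In Irgm2, Igtp, Tgtp1 and Tgtp2 a GAS core was followed by an ISRE core that started 11 bases after it, leaving 2 bases between them. The ISRE core began 64 bases before the start in Irgm2, 34 in Igtp, 77 in Tgtp1 and 70 in Tgtp2. Irgm1 had a pair of overlapping ISRE cores, which began 30 and 24 bases before the start, and no GAS core in this window. Irgq had neither core. An ISRE core was found in 3.44% of all 32851 RefSeq promoters, a GAS core in 8.30% and both in 0.454%. The arrangement with 11 bases from GAS to ISRE, with the ISRE core on the transcribed strand, occurred in 5 promoters. These were the promoters of the 4 members and of the related gene Gm12185. The spacing was set after the matches in the members were seen, and mirrored pairs were not counted. This count therefore does not show that the arrangement is particular to IRG genes. Lined up on the GAS core, Irgm2 and Igtp were identical at 68 of 70 bases, and Tgtp1 and Tgtp2 at 52 of 70. The log2 fold changes of Irgm2 and Igtp were -4.34 and -5.99. The RefSeq start used for Irgm2 is not the start of the deposited gene, whose span begins close to that of Igtp. In the deposited build the spans begin at 58090444 (Irgm2) and 58090382 (Igtp). The promoter windows, in the other build, begin at 58214877 and 58199456, so the counted Irgm2 also covers sequence upstream of this start. A match is a string of letters, and binding of any factor was not measured here.

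**Figure D4:**
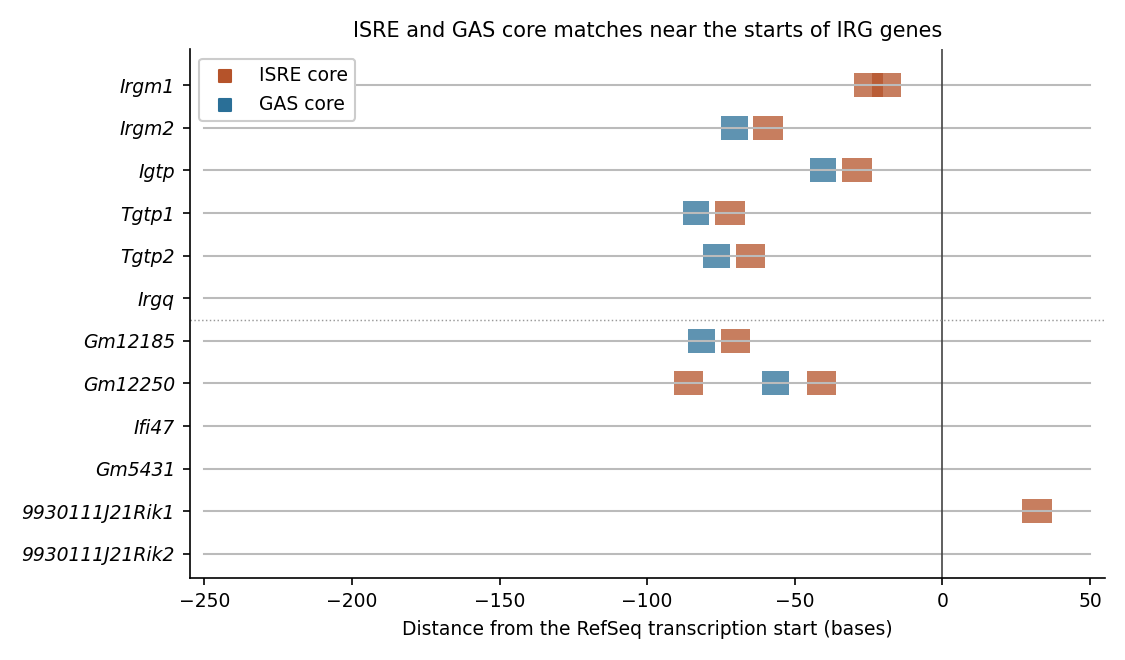
Positions of ISRE cores (orange) and GAS cores (blue) over the RefSeq promoter window, against distance in bases from the transcription start (vertical line), for the 6 members with a promoter sequence (upper rows) and 6 related genes (lower rows). Irgm2, Igtp, Tgtp1, Tgtp2 and Gm12185 share a GAS core that an ISRE core follows at 11 bases, and Irgq has no match.

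Gene positions as deposited (GRCm39 in the submitters' processing notes) placed the 7 GMS and GKS members in 3 clusters, a pair of them on chromosome 11 and the other on chromosome 18. From Irgm1 to Ifi47 on chromosome 11 all 10 tested genes were called lower, against 10.1% of all genes tested. Of these 10 genes, 8 were IRG or related genes. The others were Psme2b (log2 fold change -3.30), a gene for a proteasome activator subunit, and Or2v1 (-6.46), whose span overlaps those of several IRG genes. The span of Gm12185 covers Psme2b and 9930111J21Rik1 and overlaps Tgtp1, so the 10 calls are not all separate. The 5 tested genes before Irgm1 had log2 fold changes of -0.03 to 0.35 and none was called. After Ifi47 came Btnl9, a butyrophilin-like gene, which was higher (0.668 against 12.5 CPM, log2 fold change 4.21; edgeR's quasi-likelihood test, adjusted p = 1.45e-10), and then 4 genes from -0.29 to -0.06, none called.

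The second cluster on chromosome 11 held Gm12250, Igtp and Irgm2, and the 5 tested genes before it, from Sap30l to Mrpl22, ranged from -0.80 to 0.20 with none called. Of the 5 genes after it Zfp692 was called higher (log2 fold change 1.41) and the others were not called. On chromosome 18 the cluster ran from Gm4951 over Gm4841 and F830016B08Rik to Iigp1. The processed pseudogenes Gm5970 (log2 fold change -7.39) and BC023105 (-7.15), within and beside it, were called lower as well. Both had enough reads for the test only through group V (means of 0.0171 and 0.416 CPM in group T), so they could hardly be called higher. Their fitted fold changes are imprecise. Of the 5 tested genes before the chromosome 18 cluster Fbn2 (2.41), Slc27a6 (2.05) and Adamts19 (2.26) were called higher and Isoc1 (-1.13) lower, and after it Smim3 was called lower, just past 2-fold. Adamts19 had enough reads for the test only through group T (0.396 CPM in V, 1.93 CPM in T), so it could hardly be called lower. Irgq had no other IRG gene among the 5 tested genes on either side, of which Gm9844 was called lower (-1.23). The related gene Irgc1, too low to be tested, does lie within this stretch, between Smg9 and Plaur (24131347 to 24151722, minus strand).

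**Figure D5:**
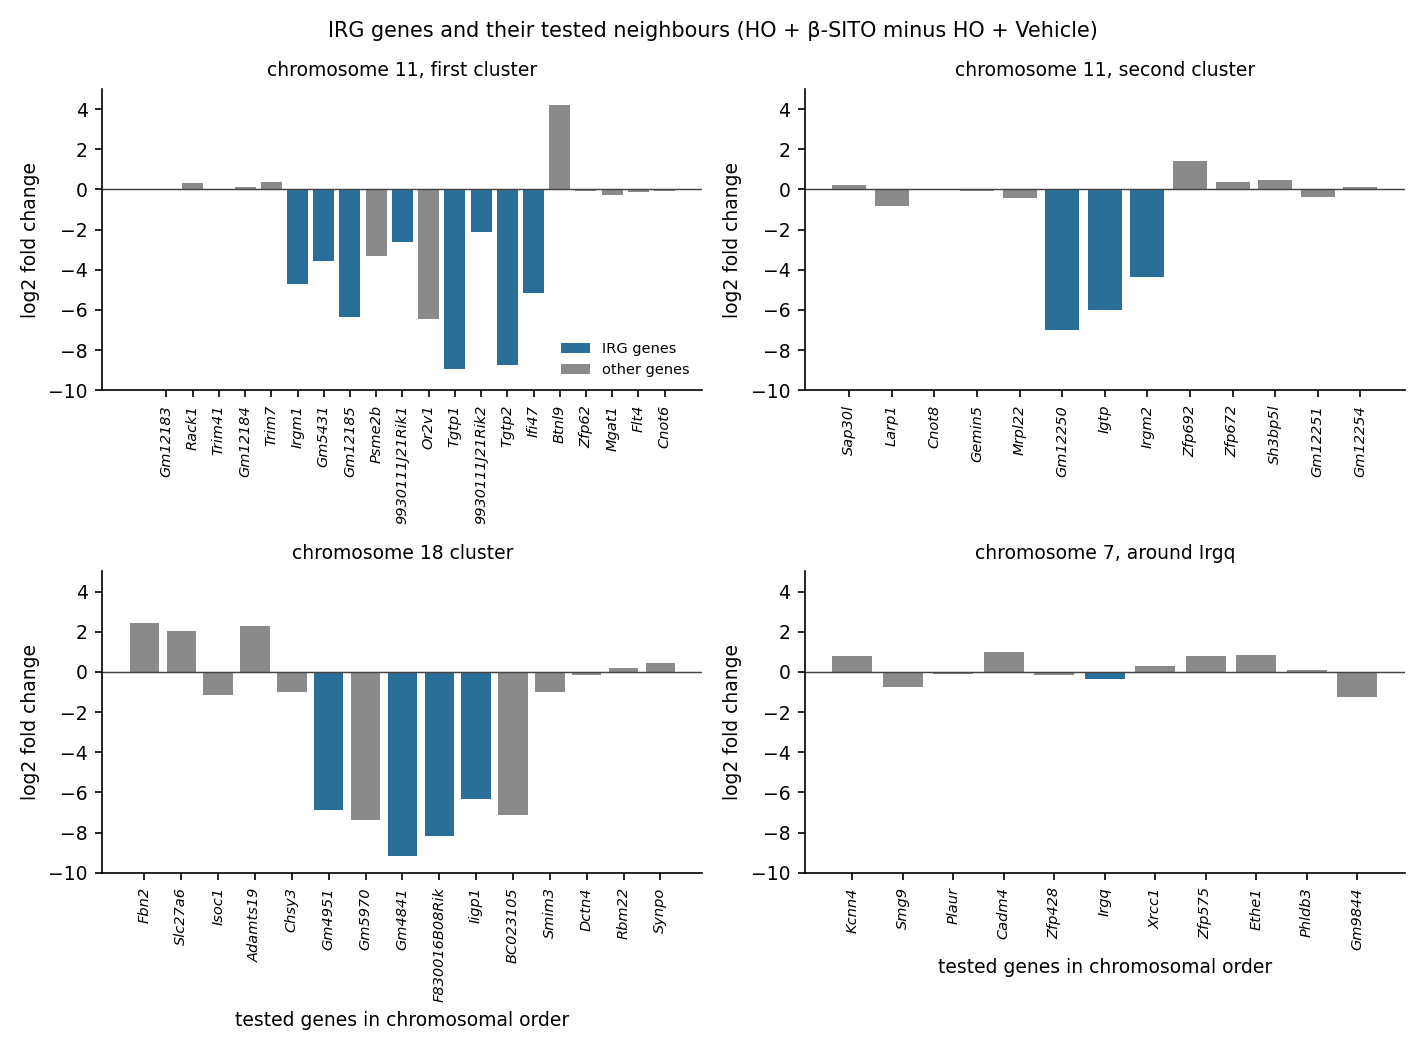
Log2 fold change (HO + β-SITO minus HO + Vehicle) of IRG genes (blue) and the other tested genes around them (grey), in chromosomal order with 5 tested genes on each side. In the first cluster on chromosome 11 the decreases begin at Irgm1 and end at Ifi47, where Btnl9 (4.21) follows, and around Irgq no change of such a size is seen.

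Other mouse genes related to the family were listed under 23 names, of which 13 are in the table under that name and 10 had enough reads to be tested. All 10 were called lower, against 10.1% of all genes tested, with a median log2 fold change of -4.58. Gm4841, F830016B08Rik and Gm12185 had enough reads for the test only through group V, so they could hardly be called higher. Gm12185 also overlaps Tgtp1 and shares sequence with it, so its call is not separate from that of Tgtp1. Gm4841 (-9.15) and F830016B08Rik (-8.15), relatives of Iigp1, had the largest fitted log2 fold changes, followed by Gm12250 (-6.99) and Gm12185 (-6.33). Gm4841 had 74.3 ± 6.84 CPM in group V and 0.123 ± 0.077 CPM in group T (SD, n = 3). In T4 to T6 it rested on 4, 2 and 1 counts, F830016B08Rik on 3, 9 and 5 and Gm12185 on 5, 11 and 4, so their fitted fold changes are imprecise, depend on the small count added in the fit, and do not settle the order of these genes. Gm12250, annotated as a processed pseudogene in the table and listed with the synonym Irgb10 in RefSeq, had 166.9 ± 8.10 and 1.31 ± 0.355 CPM (SD, n = 3). The smallest change was that of 9930111J21Rik2, at -2.13. Irgc1, a family member known from testis, had 0, 0 and 0 counts in V1 to V3 and 3, 0 and 2 in T4 to T6, too few to be tested.

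A list of 24 genes around interferon signalling held ligands, receptors, kinases and transcription factors, and also inhibitors of the pathway and factors that interferon induces, and 22 of them were tested. In group T 14 were called lower, against 10.1% of all genes tested, and none higher. The median log2 fold change was -1.74, and the remaining 8 genes had values of -0.86 to -0.48, each past the adjusted p but not 2-fold. Of the 14 called lower, Socs1, Socs3, Ptpn2 and Usp18 encode inhibitors of the pathway, and Nlrc5 and Ciita encode activators of MHC genes. Ciita and Batf2 had enough reads for the test only through group V, so they could hardly be called higher. Ifng, the ligand that induces the family most strongly, had 0 counts in all 6 libraries, which allows up to 0.154 to 0.189 CPM per library (3 counts). Ifnb1, the gene for interferon-β, had 1 count in V2 and 0 in the other libraries. The interferon-γ receptor genes Ifngr1 (log2 fold change -0.48) and Ifngr2 (-0.79) and the kinase gene Jak1 (-0.78) did not reach 2-fold. Jak2, their partner kinase, was called lower at a log2 fold change of -3.47 (397.0 ± 25.1 CPM in V, 35.9 ± 1.75 CPM in T; SD, n = 3).

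Irf1, an interferon-induced factor that binds ISRE elements, was called lower at a log2 fold change of -3.51 (302.8 ± 8.78 CPM in V, 26.6 ± 1.26 CPM in T; SD, n = 3). Socs1, the feedback inhibitor of JAK kinases, was lower as well (13.9 ± 2.60 against 1.46 ± 0.260 CPM, log2 fold change -3.24). The largest changes on the list were those of Usp18 (-6.87), a brake on type I interferon receptors, and Irf7 (-6.85), a factor that amplifies type I interferon. Batf2 (-6.62), an interferon-induced factor of macrophages, and Nlrc5 (-5.27), the activator of MHC class I genes, followed. Macrophage and endothelial markers, by contrast, were summed to higher levels in the T libraries, as given above, and their part in the levels of these genes was not tested.

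IRG effectors reach vacuoles with the help of the ubiquitin-like conjugation system that also attaches ATG8 proteins to membranes in autophagy. Of 24 genes of this machinery, with its adaptors and ubiquitin ligases, all were tested, 2 were called lower, 1 was called higher and 21 were not called, with a median log2 fold change of -0.16. The share called lower lay near that of all genes tested, 10.1%. Trim21, an interferon-induced ubiquitin ligase, was called lower at -3.14 on the log2 scale (84.9 ± 6.93 and 9.61 ± 0.363 CPM; SD, n = 3). The protease gene Atg4a had a log2 fold change of -1.08, and it was not called without T5 (-0.98). Atg16l2, a paralog of the conjugation factor Atg16l1, was higher (log2 fold change 1.06). The adaptor gene Optn (-0.90) did not reach 2-fold. The core genes Atg5 (28.7 ± 0.339 against 27.3 ± 0.746 CPM, log2 fold change -0.07) and Atg16l1 (28.7 ± 1.87 against 27.6 ± 1.52 CPM, -0.06; SD, n = 3) did not pass the test (edgeR's quasi-likelihood test, adjusted p = 0.406 and 0.525).

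Genes with profiles like those of the GMS members were sought among 10984 other genes with a mean of at least 100 counts, by the root mean square difference of centred log2 CPM over the 6 libraries. Nearest to Irgm1 were Icam1, a leukocyte adhesion molecule, at 0.069, Ifi203 of the PYHIN family at 0.072 and Trim30d at 0.099. Irgm2 lay nearest to Gpr84, a receptor for medium-chain fatty acids (0.050), C430002N11Rik (0.057) and Ccrl2, an atypical chemokine receptor (0.062). Igtp lay nearest to the macrophage scavenger receptor gene Marco (0.117), Hap1 (0.119) and Serpina3f (0.135). With 6 libraries in 2 groups this distance uses the difference between the groups, so a like fold change is part of the choice.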

How the data were processed

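The RNA-seq libraries were paired-end, and the authors deposited 1 table of raw read counts per gene from featureCounts for all 6 libraries, without normalization. The submitters' processing notes name FastQC, HISAT2 and the build GRCm39. Versions, counting options, strand use and the treatment of reads that match several genes are not given in the sources used here.

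Counts were filtered with filterByExpr, normalized with TMM and tested with edgeR 4.0.16 (quasi-likelihood, group as the only term, Benjamini-Hochberg adjustment) in R 4.3.3, a procedure tested on simulated data. Standard errors were derived from the log2 fold change and the F statistic. For large changes on few counts they were smaller than those of DESeq2. The values were 0.10 against 0.18 for Gm4951, 0.11 against 0.23 for Tgtp2 and 0.19 against 0.73 for Tgtp1. DESeq2, the tool the study used, was an alternative (version 1.42.0 here). Further alternatives were other scalings, filters and cutoffs, the removal of each library in turn and summed overlapping genes (Igtp with Irgm2, chosen after seeing the data). The deposited table holds no lengths, so lengths and coding sequences came from GENCODE vM21 by gene identifier, with each coding sequence taken as the longest open reading frame, and promoters from RefSeq.

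The members and gene lists were chosen with earlier results of these data known. Named genes are all members, 8 interferon pathway genes, the 4 largest changes of each list and the 3 nearest profiles of each GMS gene. Some of the genes so named are not reported here. Neighbours, motifs, ends of ranges, Ifnb1, inhibitors on the interferon list, Ciita, Ifi47, Atg5, Atg16l1 and Irgc1 were named after their values were seen.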

Additional observations from a re-analysis of the deposited data

How the results depend on the processing

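The count of 7 IRG genes called lower was also found with DESeq2, glmTreat against a 2-fold change, all 3 other scalings, both other filters and each library left out in turn, and it was 8 without the fold cutoff, where Irgq was added. Log2 fold changes of the members kept their sign and their side of the cutoff in all alternatives run, with -4.79 to -4.54 for Irgm1, -4.87 to -4.19 for Irgm2, -6.02 to -4.87 for Igtp, -6.37 to -6.16 for Iigp1, -9.28 to -8.75 for Tgtp1, -8.78 to -8.60 for Tgtp2, -6.92 to -6.75 for Gm4951 and -0.37 to -0.20 for Irgq. The ends at -4.87 are the summed feature of Igtp and Irgm2. Without the fold cutoff, 22 interferon signalling genes and 11 ATG8 conjugation genes were called lower, and 5007 of all genes lower and 4885 higher, against 1492 and 1888 with it. With each library left out in turn, 1 to 2 ATG8 conjugation genes were called lower, and the 1 was found without T5. Lower genes made up 44.1% of all calls with TMM, 43.8% with DESeq2 size factors, 36.3% with upper quartile and 36.1% with library size only, settings that moved the median of all genes by 0.14 and 0.15. No paired analysis was possible because the groups share no replicate numbers. The counts of Tgtp1 in the HO + β-SITO libraries limit what its fold change can show.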
